A study of Mus musculus with 8 samples.

Results

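T and NK cell surface and cytotoxic genes were followed in sorted mouse bone marrow progenitors 72 hours after transduction with KLF7, which is a zinc finger transcription factor of the Krüppel-like family. The genes were Thy1, Cd7 and Cd3e, the lectin-like receptor genes Klrd1, Klrk1 and Klrb1c, the cytokine receptor gene Il2rb, the granule genes Gzmb and Nkg7, and the transcription factor gene Tcf7. Each was read from the probe set that carried its symbol alone, and for a gene with several such probe sets the one with the highest mean over the arrays was taken. Of the 10 genes, 9 had such a probe set among 19938 genes measured in this way, each with 1 probe set, and Tcf7 is not analysed here. They were divided by their mean level over all 8 arrays, a measured value that is given as a description only. Gzmb, Thy1, Nkg7, Cd7 and Klrd1 lay above the median gene (5.84 on the log2 intensity scale), and Cd3e, Klrk1, Il2rb and Klrb1c lay below it. Nearest to the dividing line were Klrd1 at 7.53 and Cd3e at 5.62.

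All cells came from bone marrow of C57Bl/6 mice, and no other allele or agent is named in the labels. Cells carrying c-Kit received a lentivirus with KLF7 or a control virus, whose content is not given, and cells that were lineage-negative and carried c-Kit and Sca-1 were then sorted. RNA of 4 KLF7 and 4 control samples was amplified and measured on 1 array each, and the number of arrays limits the precision. Whether the 4 arrays of a group came from separate sorts, cultures or animals is not given. Every p-value therefore rests on an array-to-array spread that may be technical. Of the gate's markers, Kit, which encodes c-Kit, lay between 7.85 and 10.52 on the 8 arrays, and Ly6a, which encodes Sca-1, is not analysed here. Of 11 stem and progenitor markers measured, 7 had means above the median gene. So did 8 of 10 neutrophil markers, 11 of 14 markers of monocytes, macrophages and dendritic cells and 2 of 8 B cell markers, among them genes of cells that a lineage-negative gate is meant to leave out. Klf7 itself had a mean of 10.80 ± 0.55 (SD, n = 4) on the KLF7 arrays and 9.04 ± 1.00 (SD, n = 4) on the control arrays, and the array control 2 (10.28) lay above KLF7 2 (10.19), so groups are named by their labels. The arrays numbered 4 of both groups stood apart: 13.6% of all genes were lower on both than on the other 6 arrays, and 12.9% were higher on both.

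T cells and natural killer (NK) cells are lymphocytes, of which NK cells and cytotoxic T cells recognise and kill infected or altered cells. T cells recognise other cells through the T cell receptor, whose signal passes through the CD3 chains. NK cells weigh signals from activating and inhibitory receptors, many of them lectin-like proteins encoded in a gene complex that Klrd1, Klrk1 and Klrb1c share. NK cells and cytotoxic T cells release granules that hold perforin, which opens the target membrane, and granzymes, which cleave proteins inside the target. T cells and NK cells grow in response to interleukin 2 and interleukin 15. Antibody mixtures for lineage depletion commonly remove T cells, and the mixture used here is not given. In a bulk measurement, a larger share of cells of a type and more RNA per cell cannot be told apart.

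KLF proteins bind CACCC boxes and GC-rich boxes, so the promoter letters of members are shown for the genes that have an entry in RefSeq's promoter table (GRCm38.p6). Entries existed for 6 of the 10 genes, and Thy1, Klrd1, Cd7 and Il2rb had none. Those of the bright granule genes Nkg7 (chr7:43436888-43437137, plus strand) and Gzmb (chr14:56262335-56262584, minus strand) are printed beside that of the dim T cell receptor gene Cd3e (chr9:45009612-45009861, minus strand). Each run holds the 250 bases before the start, 5′ to 3′ on the gene's strand, and capitals mark the CACCC core or, where the core is on the other strand, its complement GGGTG.
Nkg7: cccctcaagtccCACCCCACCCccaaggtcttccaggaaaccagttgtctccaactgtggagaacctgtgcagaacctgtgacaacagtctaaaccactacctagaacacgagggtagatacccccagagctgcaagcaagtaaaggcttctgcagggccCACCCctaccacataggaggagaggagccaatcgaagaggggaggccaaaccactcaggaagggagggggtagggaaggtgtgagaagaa
Gzmb: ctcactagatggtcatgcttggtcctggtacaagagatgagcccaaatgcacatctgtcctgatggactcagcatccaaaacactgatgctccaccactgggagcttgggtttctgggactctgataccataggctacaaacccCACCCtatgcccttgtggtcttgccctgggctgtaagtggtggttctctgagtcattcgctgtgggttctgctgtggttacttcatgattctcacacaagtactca
Cd3e: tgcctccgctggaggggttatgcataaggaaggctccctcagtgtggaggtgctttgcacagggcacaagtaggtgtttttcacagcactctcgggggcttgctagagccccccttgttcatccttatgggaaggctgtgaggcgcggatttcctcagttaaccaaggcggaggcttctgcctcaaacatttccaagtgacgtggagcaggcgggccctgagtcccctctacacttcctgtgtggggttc
The Nkg7 run held 3 CACCC matches, 2 of which adjoin, the Gzmb run held 1 and the Cd3e run held 0. Of the other dim members with an entry, Klrb1c held 1 match, on the other strand, and Klrk1 held 0. None of these runs held the GC-box core CCGCCC or, for the other strand, its complement GGGCGG. Tcf7, which has 2 entries, held 2 CACCC matches in each, with 2 GC-box cores in one entry and 1 in the other. No CACCC match overlapped a GC-box match in any of these entries. Among all 32851 promoter entries, 52% held CACCC on either strand in the same window, 6.92% held at least 3, and 32.7% held CCGCCC. The matches describe letters and show no binding.

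Thy1, Klrd1 and Cd7 were the members with the largest positive differences on the KLF7 arrays. Their means were 3.55-fold, 4.02-fold and 2.30-fold higher, and each was above the median gene. No member passed the test over all genes, in which limma with Benjamini-Hochberg adjustment called 0 of 19938 genes (0% of genes, smallest adjusted p 0.201). At an unadjusted p under 0.05, 3 of the 5 members above the median were higher, where 6.83% of the 9969 genes above it were (over all genes and both directions, 8.21% reached that p). Differences of 2-fold or more were found for the same 3 members and for 0.983% of those genes. The median difference of the 5 was 1.20, beside -0.0092 for all genes above the median. None of the 4 members below the median reached that p in either direction, where 4.36% of the genes below it did, and their median difference was -0.08, beside 0.0068 for all genes on that side. The members were proposed with results of these arrays known, so their counts are not independent evidence.

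**Figure D1:**
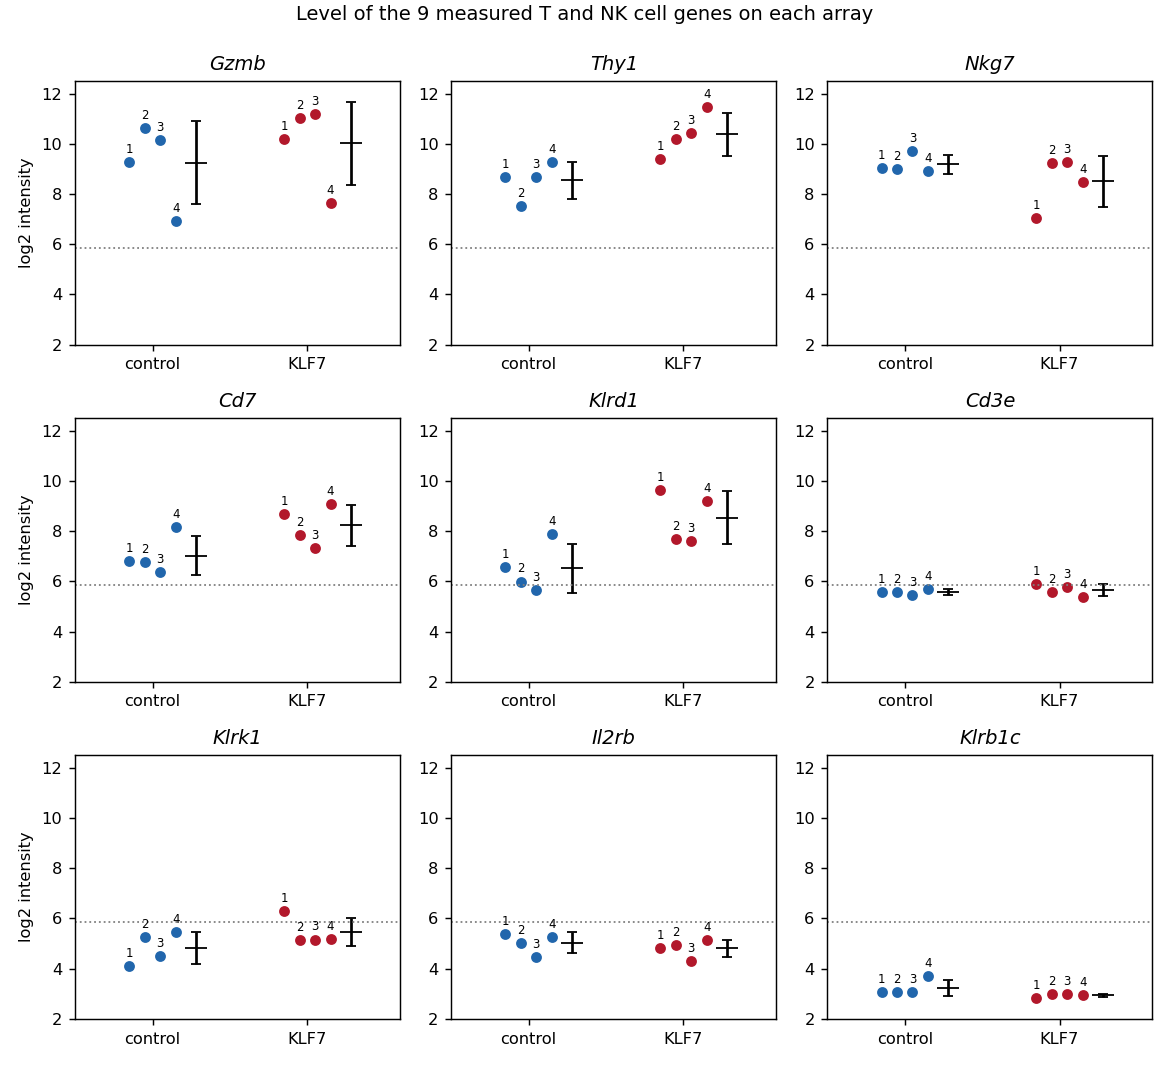
Log2 intensity of each measured gene on the 4 control (blue) and 4 KLF7 (red) arrays, numbered as in the labels, with the mean and SD of each group in black and the median gene as a dotted line. Thy1 ran from 9.39 to 11.48 on the KLF7 arrays, above all control arrays, while Cd3e, Klrk1, Il2rb and Klrb1c had means under the dotted line at 5.84.

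Thy1 encodes a small glycolipid-anchored surface protein, best known from T cells and also carried by some progenitors. Its level was 9.39, 10.21, 10.41 and 11.48 on the arrays KLF7 1 to 4, and 8.70, 7.53, 8.67 and 9.29 on control 1 to 4. Every KLF7 array lay above every control array, though KLF7 1 was only just above control 4. The means were 10.37 ± 0.86 and 8.55 ± 0.74 (SD, n = 4 each), a difference of 1.83 (SE 0.45, adjusted p 0.327 in limma). Only 5 of the 9969 genes above the median had a larger positive difference. Over all genes, the groups did not overlap for 5.22% in either direction. Leaving out 1 array at a time gave differences from 1.46 to 2.15.

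Klrd1 encodes CD94, which pairs with NKG2 proteins to form receptors of NK cells for a nonclassical MHC class I molecule. It measured 9.64, 7.69, 7.59 and 9.21 on KLF7 1 to 4 against 6.57, 5.99, 5.66 and 7.88 on control 1 to 4. The KLF7 arrays were higher except that control 4 exceeded KLF7 2 and KLF7 3. Group means were 8.53 ± 1.05 and 6.53 ± 0.98 (SD, n = 4 each), a difference of 2.01 (SE 0.56, adjusted p 0.368 in limma), and 2 genes above the median had a larger one. Leaving out 1 array at a time gave 1.64 to 2.46. Its NKG2 partners remained dim: Klrc1 lay between 2.20 and 3.20 and Klrc2 between 3.06 and 4.15 over the 8 arrays, both far under the median gene.

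Cd7 encodes an immunoglobulin-like surface protein found early in T and NK cell development. The KLF7 arrays read 8.67, 7.85, 7.31 and 9.09, and the control arrays 6.82, 6.77, 6.35 and 8.17. Control 4 again lay among the KLF7 arrays, and the other 3 control arrays were below all of them. The means of 8.23 ± 0.80 and 7.03 ± 0.79 (SD, n = 4 each) differed by 1.20 (SE 0.45, adjusted p 0.494 in limma). A larger positive difference was found for 55 of the 9969 genes above the median. Cd7 no longer had an unadjusted p under 0.05 when KLF7 1, KLF7 4, control 1, control 2 or control 3 was left out, with differences between 0.91 and 1.13, nor without KLF7 2 and control 2 together (1.24).

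All 3 genes were on average higher on the arrays numbered 4 than on the others, by 2.35-fold for Thy1, 2.56-fold for Klrd1 and 2.52-fold for Cd7. The arrays numbered 4 were therefore set apart as a term in the fit. The differences were the same by construction and the adjusted p was 0.0732 for Thy1, 0.110 for Klrd1 and 0.119 for Cd7 (limma, Benjamini-Hochberg). Among the other 6 arrays the differences were 1.71, 2.23 and 1.29, and between KLF7 4 and control 4 alone they were 2.19, 1.33 and 0.91. Without both arrays numbered 4, the groups did not overlap for Thy1, Klrd1 or Cd7, nor for 15.2% of all genes.

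**Figure D2:**
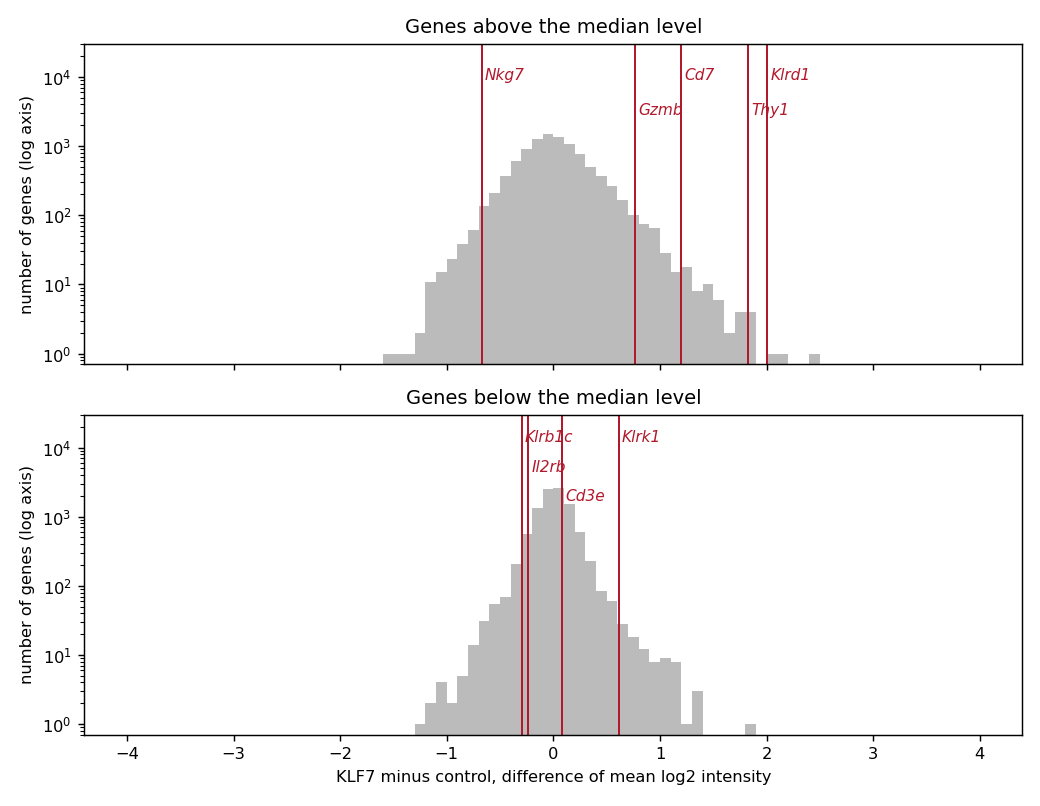
Distribution of the KLF7 minus control difference (log2) over genes above (top) and below (bottom) the median level, with a log axis for the number of genes and red lines at the members. Klrd1 (2.01) and Thy1 (1.83) stand in the thin upper tail of the brighter genes, while Cd3e (0.08) lies inside the bulk of the dimmer ones. Of the 9969 dimmer genes, 83 had a higher difference than Klrk1 (0.61). Lower differences than those of Il2rb (-0.24) and Klrb1c (-0.30) were found for 693 and 398 of them.

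Klrk1, Klrb1c, Cd3e and Il2rb, which mark mature T and NK cells, were dim in both groups. Klrk1 encodes NKG2D, an activating receptor for stress-induced ligands. It read 6.29, 5.15, 5.16 and 5.18 on the KLF7 arrays and 4.09, 5.25, 4.51 and 5.48 on the control arrays. KLF7 1 was the 1 array above the median gene, and the groups overlapped. The difference was 0.61 (SE 0.34, adjusted p 0.710 in limma) and was 0.33 without KLF7 1 and 0.36 without control 1. Without both arrays numbered 4 it was 0.91.

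Klrb1c encodes NK1.1, the antigen by which NK cells of C57Bl/6 mice are commonly sorted. All 8 values were near the bottom of the scale, at 2.82, 2.98, 2.97 and 2.96 on KLF7 1 to 4 and 3.09, 3.06, 3.07 and 3.72 on control 1 to 4. The groups did not overlap, with the KLF7 arrays lower, but control 1, 2 and 3 lay close to the KLF7 arrays. The difference was -0.30 (SE 0.15, adjusted p 0.670 in limma), and -0.14 without control 4. About 5.44% of genes had a mean at or under that of Klrb1c.

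Cd3e encodes a signalling chain of the T cell receptor complex. Its levels ran from 5.37 to 5.91 on the KLF7 arrays and from 5.44 to 5.71 on the control arrays, so the groups lay within each other. The difference was 0.08 (SE 0.15, adjusted p 0.956 in limma), and -0.0041 without KLF7 1. The other CD3 chains were also dim, with Cd3d between 3.31 and 4.14, Cd3g between 3.66 and 4.12 and Cd247, the zeta chain, between 4.84 and 5.47 over all arrays. Cd4 and Cd8a, the coreceptor genes of T cells, lay between 4.18 and 4.95 and between 5.09 and 5.61.

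Il2rb encodes the receptor chain shared by interleukin 2 and interleukin 15. It lay at 4.84, 4.94, 4.31 and 5.13 on the KLF7 arrays and at 5.40, 5.01, 4.48 and 5.28 on the control arrays. The groups overlapped and the difference was -0.24 (SE 0.23, adjusted p 0.899 in limma), with -0.07 without KLF7 3, -0.12 without control 1, -0.42 without control 3 and -0.16 without control 4. Il2rg, the common gamma chain, is not analysed here. Il2ra, the alpha chain, averaged higher with KLF7, at 8.56, 9.41, 9.23 and 8.35 against 7.77, 8.68, 8.01 and 6.54. Control 2 lay above KLF7 1 and KLF7 4, and the difference was 1.14 (SE 0.42, adjusted p 0.483 in limma), with 0.74 without control 4.

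The granule genes Gzmb and Nkg7 were bright in both groups, and neither had a difference larger than the spread between the KLF7 arrays. Gzmb encodes granzyme B, a protease of cytotoxic lymphocytes that mast cells also make. It read 10.21, 11.04, 11.19 and 7.63 on KLF7 1 to 4 and 9.26, 10.65, 10.17 and 6.93 on control 1 to 4. The main split was by array number: both arrays numbered 4 were far below the other 6, by 8.80-fold on average. The group means were 10.02 ± 1.65 and 9.25 ± 1.65 (SD, n = 4 each), a difference of 0.77 (SE 0.89, adjusted p 0.929 in limma). Single arrays moved this value: it was 0.43 without KLF7 2, 0.38 without KLF7 3 and 1.23 without control 2. It was 1.56 without KLF7 4 and -0.0058 without control 4, omissions that leave a low array numbered 4 in 1 group only. With both arrays numbered 4 left out it was 0.79, between those arrays alone it was 0.71, and with these arrays as a term the adjusted p was 0.341 in limma.

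Mast cell and basophil markers moved with Gzmb from array to array. Of 11 such genes measured, 10 were lower on both arrays numbered 4 than on the other 6, and 10 had means above the median gene. The list's Kit and Gata2 are progenitor markers as well. The mean level of all 11 markers was 6.70 on KLF7 4 and 6.49 on control 4, and between 8.82 and 9.96 on the other arrays. Their summed intensity ran from 1564 to 17196 on the KLF7 arrays and from 1373 to 13240 on the control arrays, and 0 of the 11 had an unadjusted p under 0.05 between the groups. Cpa3, a mast cell carboxypeptidase gene, lay lowest on control 4 (7.48) and highest on KLF7 3 (12.56). Of 10 neutrophil markers, 6 were also lower on both arrays numbered 4. The part of these cells in the Gzmb signal was not tested. Of other cytotoxic effectors, Gzma lay between 3.68 and 4.09 and Prf1, which encodes perforin, between 5.25 and 5.76 on all 8 arrays. Gzmc, another granzyme gene, ran opposite to Gzmb on the arrays numbered 4. It read 6.81 on KLF7 4 and 6.90 on control 4, and between 4.38 and 5.32 on the other arrays.

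**Figure D3:**
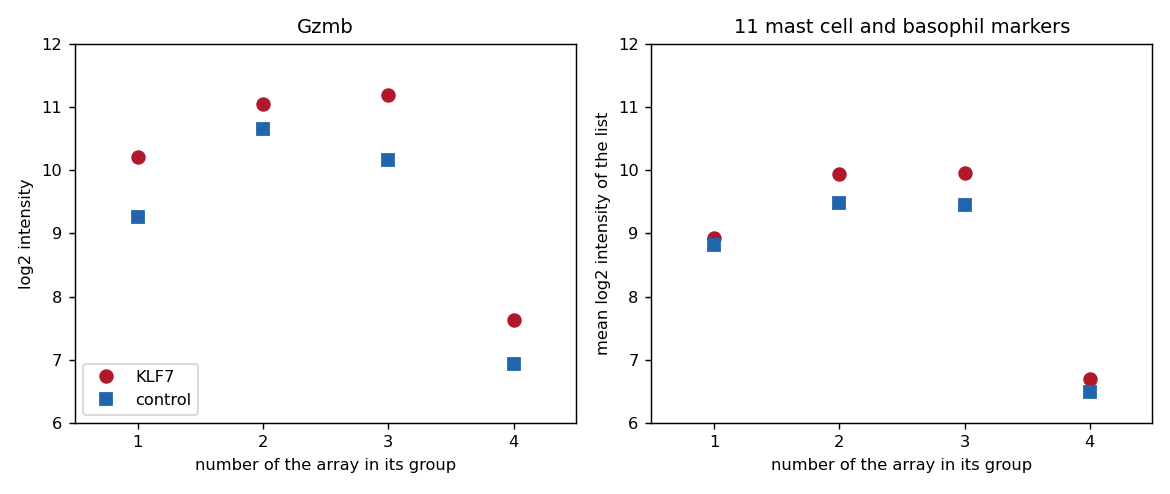
Log2 intensity of Gzmb (left) and the mean log2 intensity of 11 mast cell and basophil markers (right) on each array, by the array's number within its group. Both arrays numbered 4 are lowest in each panel, at 7.63 and 6.93 for Gzmb and at 6.70 and 6.49 for the markers.

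Nkg7 encodes a granule membrane protein of NK and cytotoxic T cells. The control arrays read 9.04, 9.01, 9.73 and 8.93, and the KLF7 arrays 7.06, 9.23, 9.26 and 8.48. KLF7 1 stood well below the rest, while KLF7 2 and KLF7 3 were within the control range. The difference was -0.67 (SE 0.44, 1.59-fold lower, adjusted p 0.786 in limma), and -0.19 without KLF7 1. Of the 9969 genes above the median, 190 had a lower difference. Gzmb was not low on KLF7 1. For Nkg7 the arrays next lowest after KLF7 1 were KLF7 4 and control 4, which were lowest for Gzmb.

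Other genes of these pathways were taken from lists written for T and NK cells, described here by their counts. Over all genes, 4.65% were higher and 3.56% lower at an unadjusted p under 0.05, and no listed gene passed after adjustment. The mean was higher with KLF7 for 48.7% of all genes above the median and 52% of those below it. Of 21 NK receptor and adaptor genes, 20 averaged higher with KLF7 and 7 were higher at that p. The median difference of the 21 was 0.22 beside 0.0019 for all genes, and 15 of them had means below the median gene. The smallest p among them was that of Tyrobp, which encodes DAP12, the adaptor through which activating receptors signal. It measured 10.96, 11.35, 10.90 and 11.24 on the KLF7 arrays and 10.06, 10.61, 10.17 and 10.57 on the control arrays, with no overlap (difference 0.76, SE 0.20, adjusted p 0.327 in limma). Slamf7, a receptor gene of lymphocytes and macrophages, differed by 1.21 (SE 0.40) and by 0.81 without KLF7 1. Klrb1f, a relative of Klrb1c, differed by 0.99 (SE 0.36) and by 0.61 without KLF7 4. Klri1, an NK lectin-like receptor gene, differed by 1.34 (SE 0.50) and by 0.86 without KLF7 1. Hcst, which encodes DAP10, the other adaptor of NKG2D, lay between 6.86 and 8.17 with no clear order of the groups. The NK lineage genes Ncr1 and Eomes, by contrast, stayed between 3.38 and 4.16 and between 4.18 and 5.42.

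Genes of the T cell receptor and T cell surface were mostly dim. Of 17 T cell receptor and surface genes, 12 had means below the median gene and 11 averaged higher with KLF7. At an unadjusted p under 0.05, 1 was higher, beside 4.65% of all genes. That gene was Icos, a costimulatory receptor gene, at 5.99 against 5.53 (difference 0.46, SE 0.14, adjusted p 0.387 in limma). Of 12 T cell signalling genes, 7 had means above the median gene. In that list 1 gene reached that p, Ubash3a, a negative regulator of receptor signalling, with a difference of -0.56 (SE 0.23), and -0.36 without KLF7 1. Of 8 ligand genes for the members, 1 did, the NKG2D ligand gene Raet1d (-0.64, SE 0.17), at a mean of 3.26 well below the median gene. In either direction 8.21% of all genes reached that p, so 1 gene in a list of this length is no result about the list.

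Of 23 genes of cytotoxic granules and killing, 3 were higher at an unadjusted p under 0.05, beside 4.65% of all genes. They were Serpinb9, the intracellular inhibitor of granzyme B (1.14, SE 0.25, 2.21-fold, adjusted p 0.298 in limma, groups not overlapping), Ctsc, the protease that activates granzymes (0.71, SE 0.24), and the chemokine gene Ccl5 (0.93, SE 0.31). Ccl5 was at 0.59 without the arrays KLF7 2 and control 2. Of 12 genes of the interleukin 2 and 15 receptor pathway, 3 were higher at that p: Il2ra, Il21r, the interleukin 21 receptor gene (0.79, SE 0.29, and 0.51 without KLF7 1), and Cish, a feedback inhibitor (0.53, SE 0.20). Il15ra had a lower mean, with a difference of -0.35 (SE 0.16) and groups that did not overlap. Among 24 transcription factor genes of the lineages, Id2, needed for innate lymphoid and NK cells (0.87, SE 0.28), and Gata3, a T cell factor (0.46, SE 0.18), were higher at that p and Tcf3, which encodes the E proteins that Id2 blocks (-0.45, SE 0.20, and -0.28 without KLF7 1), was lower. Lef1, the close relative of Tcf7, lay between 5.28 and 6.91, with both arrays numbered 4 highest. Among the listed genes, 16 were given with a difference here and had an unadjusted p under 0.05. Of these, 8 stayed under it whichever array was left out: Tyrobp, Slamf7, Icos, Raet1d, Serpinb9, Ctsc, Ccl5 and Id2. The other 8 did not, and Tcf3 missed it in 6 of the 8 omissions, Cish and Gata3 in 5 and Ubash3a in 4. Further NK genes at that p, such as Fcer1g, were not among the 16.

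**Figure D4:**
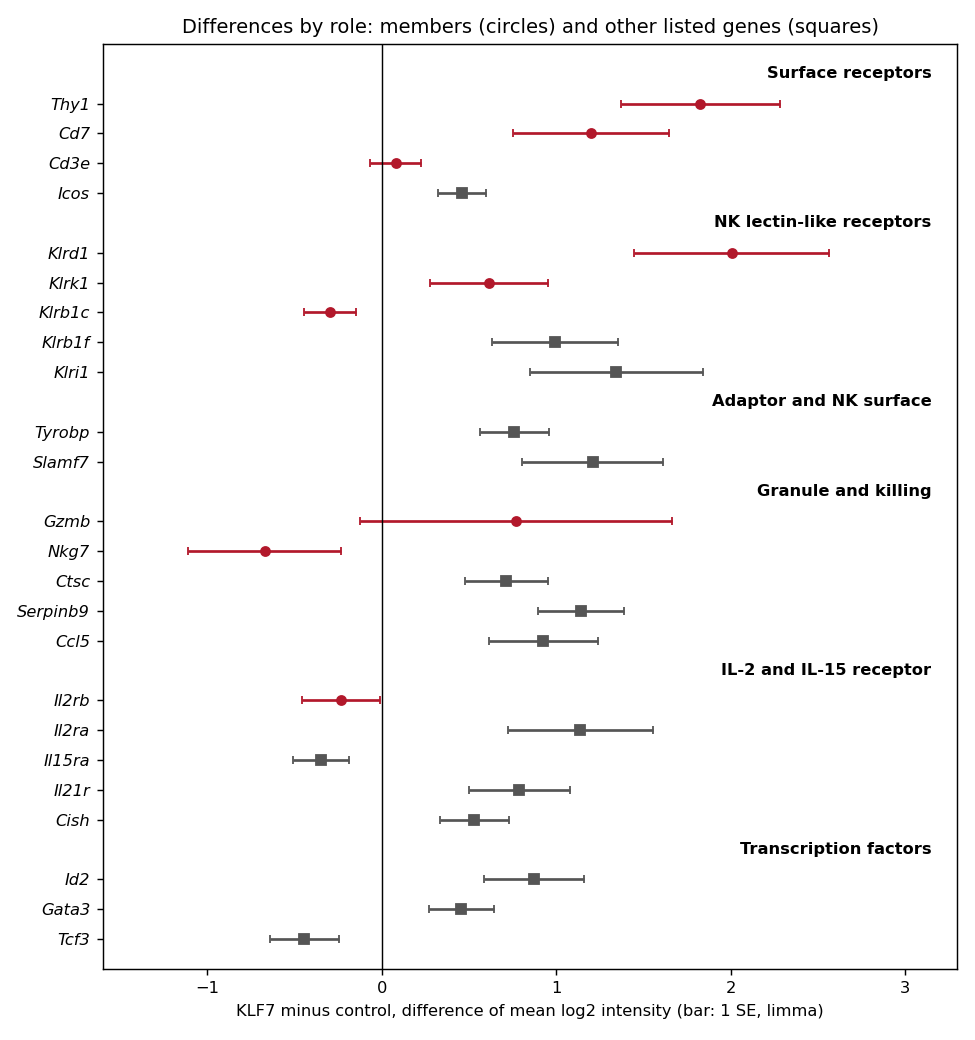
KLF7 minus control difference in mean log2 intensity with 1 SE (limma, 4 arrays a group) for members (circles) and other listed genes (squares), grouped by role. Klrd1, Thy1 and Cd7 are at 2.01, 1.83 and 1.20 while Cd3e, Klrb1c and Il2rb are at 0.08, -0.30 and -0.24, and no gene shown passed the adjusted test.

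Several of these genes are not particular to T and NK cells. Myeloid cells also express Tyrobp, Fcer1g, Ctsc, Slamf7 and Id2, and markers of monocytes, macrophages and dendritic cells were higher on the KLF7 arrays as well. Of 14 such markers measured, 12 had a higher mean, as did 48.7% of all genes above the median and 52% below it. At an unadjusted p under 0.05, 7 were higher, beside 4.65% of all genes. The summed intensity of the 14 was 8932 to 18476 on the KLF7 arrays and 4411 to 11184 on the control arrays. For the 21 NK genes the sums were 5419 to 6411 and 3437 to 4501. Most of each sum came from Tyrobp (1915 to 2607 and 1071 to 1563) and Fcer1g (2044 to 2912 and 1702 to 2123). For the 17 T cell surface genes the sums were 772 to 1211 and 722 to 1312. No marker was at 0 on an array, since the scale has no true zero, and the lowest level in the NK list was 1.71. The mean level of the 14 myeloid markers was 9.03, 8.28, 8.16 and 8.63 on KLF7 1 to 4. On control 1 to 4 it was 8.10, 7.79, 7.32 and 8.46. Klrd1 had this same order of the arrays, and for Cd7 only KLF7 1 and KLF7 4 changed places. Thy1 was ordered otherwise, with KLF7 1 the lowest of the KLF7 arrays. The part of myeloid or lymphoid cells in the higher Thy1, Klrd1 and Cd7 levels was not tested.

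Thy1 had the smallest p of the members, and the genes above the median whose array profile was most like it were S100a6, Crip1 and S100a10. Likeness was the root mean square difference of centred log2 levels over the 8 arrays, which was 0.42 for S100a6 and 0.43 for Crip1, and 0.46 for S100a10. For Cd7 and Klrd1 it was 0.82 and 0.98, and for the remaining members 1.18 or more. S100a6 and S100a10 encode small S100 proteins, most of which bind calcium, and Crip1 a LIM domain protein. S100a6 read 11.73, 12.04, 11.82 and 12.28 on the KLF7 arrays and 10.14, 9.36, 10.22 and 11.12 on the control arrays. Control 2 was lowest and control 4 highest among the controls for both S100a6 and Thy1. The profiles were chosen for likeness on these arrays, and no test is attached to them.

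**Figure D5:**
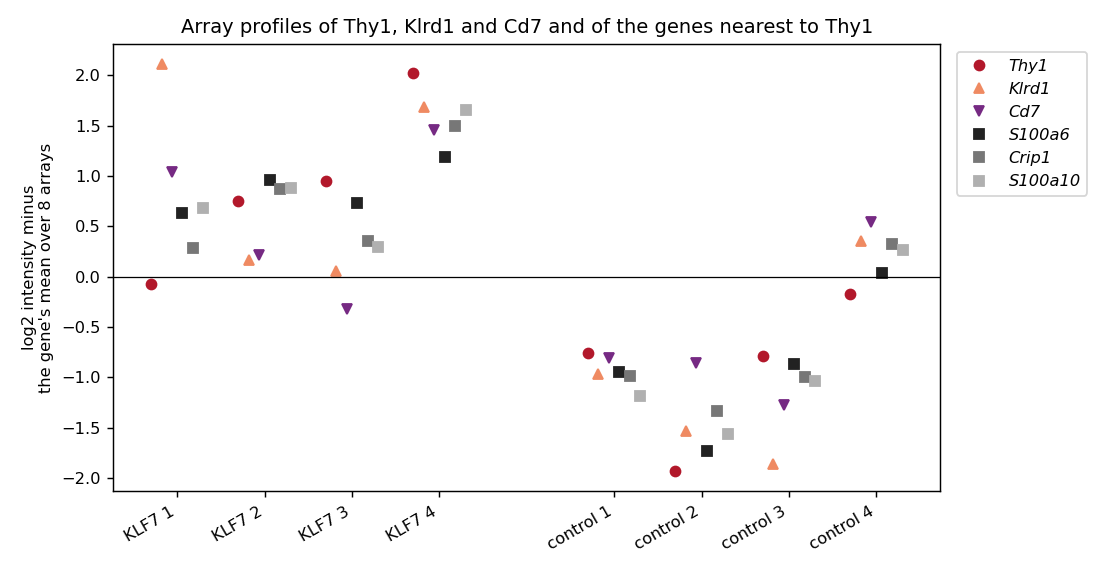
Log2 intensity of each gene minus its own mean over the 8 arrays, for Thy1, Klrd1 and Cd7 (coloured) and for S100a6, Crip1 and S100a10 (grey squares). Thy1 and the grey squares are highest on KLF7 4 and lowest on control 2, while Klrd1 is highest on KLF7 1 (9.64 before centring).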

How the data were processed

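The deposited values are probe set intensities on a linear scale, which, per the submitters' processing notes, the authors made with RMA (Affymetrix Expression Console). The sources used here give no version, summary level or genome build. RMA corrects background and normalises between arrays, and RNA amplification may compress differences of dim genes. Log2 was taken. The platform annotation gave 1 gene symbol for 21789 of the 35554 probe sets, several for 1621 and none for 12144. The 19938 genes were tested with limma 3.58.1 in R 4.3.3 (lmFit, then eBayes with trend), with no term but group, no filter on dim genes, two-sided tests and Benjamini-Hochberg adjustment over all genes (threshold 0.05). The script was tested on simulated data. Members, lists and alternatives were chosen with earlier results of these data known. Named genes were the members, Klf7, their direct partners, up to 4 genes per list by smallest p, and the 3 genes most like the member with the smallest p. Fcer1g, Ncr1, Eomes, Cd4, Cd8a, Gzmc, Cpa3 and Kit were named after their values were seen. Promoters are RefSeq's (GRCm38.p6). Figures used matplotlib 3.10.9.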

Additional observations from a re-analysis of the deposited data

Results flagged for a closer look

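In groups of 4 arrays, 7 of 54 sets of values held an array far from the other 3 by Dixon's criterion, which chance alone meets in about 1 in 20. For Klrk1, KLF7 1 was at 6.29, with the next KLF7 array at 5.18. For Klrb1c, control 4 was at 3.72 above 3.09, and KLF7 1 at 2.82 below 2.96, all at the dim end of the scale. For Nkg7, control 3 was at 9.73 above 9.04. For Slamf7, KLF7 1 was at 9.14 above 7.59, and control 3 at 5.83 below 6.91. For Cish, KLF7 2 was at 9.24 below 9.65. KLF7 1 was the outlying array in 3 of these 7 sets.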

How the results depend on the processing

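Thy1, Klrd1, Klrk1, Klrb1c, Cd7, Il2rb, Nkg7, Klf7 and the other genes given with a difference kept their direction in every alternative run, with 2 exceptions: Cd3e was at -0.0041 without the array KLF7 1 (-0.0041 to 0.18 over the omissions of 1 array), and Gzmb at -0.0058 without control 4 (-0.0058 to 1.56). The count of genes called was 0 in the main fit, 0 to 1 when each array was left out, 90 with the replicate number as a block and 26 with the arrays numbered 4 as a term. With this replicate block, Thy1 (adjusted p 0.0385 in limma), Klrd1 (0.0291) and Cd7 (0.0415) passed, among 0.451% of all genes. The deviations of same-numbered arrays from their group means correlated at 0.35, -0.13, 0.36 and 0.70 for numbers 1 to 4, and number 2 missed the minimum of 0.1 set for every pair, so the numbers were not taken as pairs. Numbers 1, 3 and 4 correlated best with their own number, which is a hint from the data and not from the design. Members at an unadjusted p under 0.05 numbered 3 (8.21% of all genes), 2 to 4 when each array was left out (6.06% to 9.88%) and 5 with the arrays numbered 4 as a term (12.3%). Of those 5, 4 were higher (Thy1, Klrd1, Cd7 and Gzmb) and 1 was lower, the dim Klrb1c. Members whose groups did not overlap numbered 2 (5.22% of all genes), 2 to 4 when each array was left out (7.09% to 9.95%) and 4 without both arrays numbered 4 (15.2%), where fewer arrays make a gap more common. They numbered 1 after omitting the dimmer 50% of genes (7.72% of the rest), which removes Klrb1c from the count. Further alternatives, in which no count moved by more than 1.5 times and no member changed direction, were quantile normalization again, array medians, the mean of probe sets, no intensity trend, array weights and the omission of KLF7 2 with control 2.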
